A study of Mus musculus with 18 samples.

Results

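A group of 10 genes of FGF signalling through the ERK kinases is described. FGF4 is a ligand, and FGFR1 and FGFR2 are receptors. The others are the ETS transcription factors Etv4 and Etv5, the immediate early factor Egr1 and the feedback inhibitors Spry2, Spry4, Spred1 and Dusp6. The 10 genes were taken as a named list, chosen with earlier results of these data known. Their counts beside the shares of all genes are therefore a description. All probes carrying one of these symbols were used, 17 of the 46643 probes of the array. After removal of probes that were not detected in any full group, 12 of the 17 probes, from 8 of the 10 genes, entered the tests. Fgfr1 and Spry2 did not, and their values are given below.

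E14 mouse embryonic stem (ES) cells, grown without feeders on gelatin in serum with LIF, were transfected with a pSUPER.puro plasmid that expressed a short hairpin RNA (shRNA) against either GFP, the control, or Esrrb. Esrrb is an orphan nuclear receptor of the ES cell transcription factor network. RNA was taken at day 2, day 4 and day 6, with 3 biological replicates for each shRNA and day, and read on 18 Illumina bead arrays. Each of 3 BeadChips carried 1 replicate of all 6 groups and always in the same order, so that place on the BeadChip and group cannot be told apart. Labels name 1 kind of Esrrb shRNA for all arrays; whether that hairpin acted on transcripts other than Esrrb was not tested. Whether untransfected cells were removed is not given in the sources used here.

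ES cells secrete FGF4, which acts back on them through FGF receptors, the RAS GTPases and the kinases RAF, MEK and ERK. ERK activity is not needed for self-renewal but makes ES cells competent to leave the naive state. Active ERK induces its own inhibitors: Sprouty and SPRED proteins act at or above the level of RAF, DUSP6 removes phosphate from ERK, and ETS factors of the Etv4 and Etv5 subfamily are transcribed in response to FGF in many embryonic tissues.

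Median raw intensity was between 60.4 and 76.9, between 37.9% and 42.9% of probes were detected, and the members were read from 14 to 63 beads per probe and array, with a median of 35. Estimated array weights ran from 0.38 for replicate 1 of the day 2 control, with 0.53 for replicate 1 of Esrrb shRNA at day 6, to 1.74. With the Esrrb shRNA the brighter Esrrb probe was at 21.3% of control at day 2, 15.2% at day 4 and 27.4% at day 6 (limma adjusted p = 6.78e-11, 6.94e-13 and 5.49e-11), while a second, dim Esrrb probe stayed between 90.7% and 102% of control. Of 9 measured ES cell markers all 9 were detected on every array. Their summed normalised intensity was between 46300 and 53300 in control cells and between 48100 and 48900 in Esrrb shRNA cells at day 2. It was 44800 to 46400 against 43400 to 43900 at day 4, and 43200 to 44100 against 38100 to 42900 at day 6, so it was lower with the Esrrb shRNA on both days. Summed trophectoderm markers were between 5750 and 5880 in control cells and between 12500 and 14300 in Esrrb shRNA cells at day 6, after 2160 to 2550 and 3340 to 3570 at day 2. Summed primed epiblast and streak markers were between 4600 and 5450 in control cells at day 6 against 13600 to 14500 in Esrrb shRNA cells. At day 2 they were 10200 to 11700 against 13100 to 14400, so this sum fell in control cells and stayed near its level in Esrrb shRNA cells. Single markers did not stay level there: 6 of 8 tested were higher at day 6 than at day 2 and 0 lower (median 0.98). Of all tested genes 19% were higher in that comparison. The detection filter had admitted 3 of the 8 only through Esrrb shRNA groups. Summed primitive endoderm markers lay between 1900 and 2060 in control cells at day 6 against 2120 to 2190 in Esrrb shRNA cells. Of 7 tested markers of that list 3 were higher and 3 lower at day 6, beside 19.4% and 20.8% of all tested genes. Of 10 fibroblast markers, Pdgfrb, Thy1 and Twist1 were detected in every group, and the collagens Col1a1, Col1a2 and Col3a1 in none. Their summed level at day 6 was between 382 and 412 in control cells against 239 to 262 in Esrrb shRNA cells. Fgf5 and Fgf8 belong both to the epiblast list and to the FGF ligands described below. These marker levels moved with the groups, and their part in the results below was not tested.

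Fgf4 and Fgfr2, the ligand and the tested receptor among the 10 genes, lie on the same chromosome in mouse. The 250 bases before their RefSeq start sites are shown because Fgf4 and the brightest Fgfr2 probe moved in opposite directions on every day. A dimmer Fgfr2 probe, 6940377, was lower at days 4 and 6, as Fgf4 was. Capitals mark matches to any of 5 short motifs, searched on both strands in assembly GRCm38.p6.
Fgf4 (chr7:144861136-144861385, plus strand): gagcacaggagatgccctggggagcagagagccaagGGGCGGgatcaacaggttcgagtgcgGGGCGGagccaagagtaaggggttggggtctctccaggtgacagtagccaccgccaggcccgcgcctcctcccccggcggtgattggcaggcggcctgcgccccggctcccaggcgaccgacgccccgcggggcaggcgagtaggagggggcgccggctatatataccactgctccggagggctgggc
Fgfr2 (chr7:130266809-130267058, minus strand): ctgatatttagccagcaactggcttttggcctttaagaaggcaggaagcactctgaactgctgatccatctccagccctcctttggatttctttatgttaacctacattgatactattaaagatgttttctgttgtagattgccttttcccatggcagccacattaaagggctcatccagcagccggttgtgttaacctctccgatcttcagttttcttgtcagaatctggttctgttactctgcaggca
The Fgf4 window was 71.2% G and C and held the GC box GGGCGG, bound by SP factors, starting 214 and 188 bases before the start. The Fgfr2 window was 44% G and C and held none of the 5 motifs. Among all 32851 promoter windows of that length, 32.7% held GGGCGG. The other motifs searched were AAGGTCA, the half-site of the ERR family to which Esrrb belongs, in 4.08% of windows, the octamer ATTTGCAT in 1.6%, the ETS motif CCGGAAG in 6.91% and TATAAA in 12.4%, and neither window held any of them. No motif is contained in another. Windows of 6 of the 10 genes were searched (Fgf4, Fgfr2, Etv5, Dusp6, Spred1 and Spry2), and none held AAGGTCA.

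Values below are log2 normalised intensities, given for replicates 1, 2 and 3 in that order, and a difference is Esrrb shRNA minus GFP shRNA with its standard error, from 1 limma model over all 18 arrays. Adjusted p-values are over all 19460 tested probes, and a gene counts as changed at an adjusted p under 0.05. Among the 8 tested genes 1 was higher and 3 were lower with the Esrrb shRNA at day 2, 1 was higher and 4 were lower at day 4, and 4 were higher and 2 lower at day 6. Of all 14533 tested genes 11.4% changed at day 2 (6.21% higher and 5.19% lower), 22.7% at day 4 (11.9% and 10.7%) and 40.2% at day 6 (19.4% and 20.8%), so by day 6 a change was common across the array. The median difference of the 8 genes was −0.11, −0.23 and 0.28 on the 3 days, beside 0, 0 and −0.01 for all genes. By the brightest probe of each gene, Fgf4 and Etv4 were lower and Fgfr2 was higher on all 3 days. Spry4 was lower at days 2 and 4 and not at day 6, Egr1 was lower at day 4, and Dusp6, Etv5 and Spred1 were higher at day 6. Other probes of Fgfr2, Dusp6 and Spred1 differed from this, as given below.

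**Figure D1:**
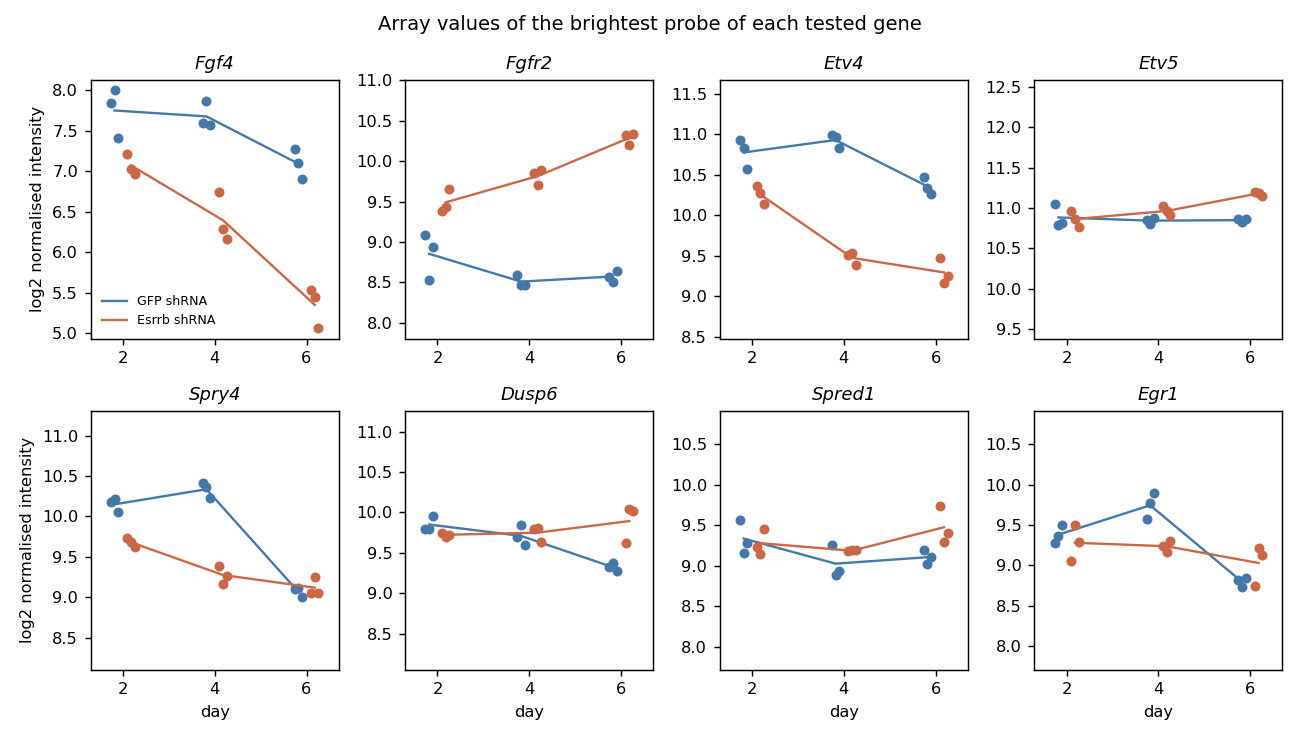
Log2 normalised intensity (vertical axis, of equal height in every panel) against day for the brightest probe of each of the 8 tested genes; points are single arrays, lines join group means, blue is GFP shRNA and orange is Esrrb shRNA. Fgf4 in Esrrb shRNA cells ends at 5.06 to 5.53, while Fgfr2 ends at 10.20 to 10.34.

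Fgf4 encodes the main FGF ligand of ES cells. At day 2 its probe read 7.84, 8.0 and 7.41 in control cells and 7.21, 7.03 and 6.97 in Esrrb shRNA cells. At day 4 it read 7.59, 7.87 and 7.57 against 6.74, 6.28 and 6.16. At day 6 it read 7.28, 7.10 and 6.90 against 5.53, 5.45 and 5.06. The control arrays lay above the Esrrb shRNA arrays on each day without overlap. The differences were −0.68 (SE 0.17, adjusted p = 0.011), −1.28 (SE 0.17, adjusted p = 8.46e-06) and −1.74 (SE 0.17, adjusted p = 6.94e-08), which are 62.5%, 41.1% and 29.8% of control. The effect at day 6 was larger than at day 2 by −1.07 (SE 0.24, adjusted p = 0.00274), whereas the steps from day 2 to day 4 (−0.61, adjusted p = 0.17, or 0.0452 with the BeadChip as a replicate block) and from day 4 to day 6 (−0.46, adjusted p = 0.226) did not pass. Within single BeadChips the Fgf4 difference ran from −0.97 to −0.44 at day 2, from −1.59 to −0.85 at day 4 and from −1.84 to −1.64 at day 6. Each difference called in the 8 genes had 1 sign on all 3 BeadChips. That is a description only, since the calls were made on the same arrays. In bulk RNA, fewer cells that express a gene and less of its RNA per cell cannot be told apart.

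Fgf4 also fell in the control cells, by 0.66 from day 2 to day 6 (adjusted p = 0.00292), and in Esrrb shRNA cells by 1.72 (adjusted p = 1.09e-07). The order of its group means was GFP day 2 (7.75), GFP day 4 (7.68), GFP day 6 (7.09), Esrrb shRNA day 2 (7.07), Esrrb shRNA day 4 (6.39) and Esrrb shRNA day 6 (5.35). The first and second of these groups overlapped, as did the third and the fourth, and the others were apart from their neighbours. Raw Fgf4 intensity on the last 3 arrays was 84.4, 88.9 and 87.7, close to the array medians of 62.6, 67.6 and 76.9, though the probe was detected on all 18 arrays. Its fold change therefore depended on the background step: without background correction the differences were −0.50, −0.87 and −0.96, and the step from day 2 to day 6 was −0.46 (adjusted p = 0.0301). The call at day 2 did not hold without replicate 2 of the day 2 control (−0.55, adjusted p = 0.058) or with array weights (−0.61, adjusted p = 0.0662).

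Fgfr2, which encodes an FGF receptor tyrosine kinase, was read by 4 probes that did not move alike. The brightest, probe 100780364, read 9.09, 8.53 and 8.94 in control cells at day 2 and 9.38, 9.43 and 9.66 in Esrrb shRNA cells. At day 4 it read 8.59, 8.47 and 8.47 against 9.85, 9.70 and 9.89. At day 6 it read 8.57, 8.51 and 8.64 against 10.32, 10.20 and 10.34. All Esrrb shRNA arrays lay above all control arrays. The differences were 0.64 (SE 0.12, adjusted p = 0.00119), 1.31 (SE 0.12, adjusted p = 8.25e-08) and 1.71 (SE 0.12, adjusted p = 7.71e-10), or 156%, 248% and 328% of control. The effect grew by 0.67 from day 2 to day 4 (SE 0.17, adjusted p = 0.0288) and by 1.08 from day 2 to day 6 (SE 0.17, adjusted p = 1.27e-04). The gain from day 2 to day 4 lost its call, with values from 0.55 to 0.65, when any 1 of 8 arrays was left out: replicates 1 and 3 of the day 2 control, 1 and 2 of Esrrb shRNA at day 2, 2 and 3 of the day 4 control, or 1 and 3 of Esrrb shRNA at day 4. It was 0.14 when all kept probes of the gene were averaged.

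Probe 5570402 for Fgfr2 went the same way near the detection limit. It was detected on no control array, and on 1, 3 and 3 of the 3 Esrrb shRNA arrays at days 2, 4 and 6. Since control cells gave only a bound, Fgfr2 by this probe was at least 1.21-fold higher at day 4 (adjusted p = 0.0287) and at least 1.56-fold higher at day 6 (adjusted p = 3.12e-05), where the bound sets the mean of the Esrrb shRNA arrays against the lowest signal of a detected probe or the probe's own value. Because it passed the detection filter through the Esrrb shRNA arrays, this probe had to be higher there. Probe 6940377, detected on all 18 arrays but dim, went the other way. It read 5.69, 5.65 and 5.82 in control cells at day 4 against 5.21, 5.50 and 5.10, and 5.77, 5.55 and 5.81 at day 6 against 5.40, 5.39 and 5.27. At both days its control arrays were the higher ones, by −0.45 (SE 0.13, adjusted p = 0.0138) and −0.36 (SE 0.13, adjusted p = 0.0315) for Esrrb shRNA minus control, and at day 2 the groups overlapped (0.10, adjusted p = 0.705). The remaining probe, 4670601, was not detected on any array. With the 3 kept Fgfr2 probes averaged the differences were 0.32, 0.46 and 0.82. Which Fgfr2 transcripts each probe matches was not tested.

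**Figure D2:**
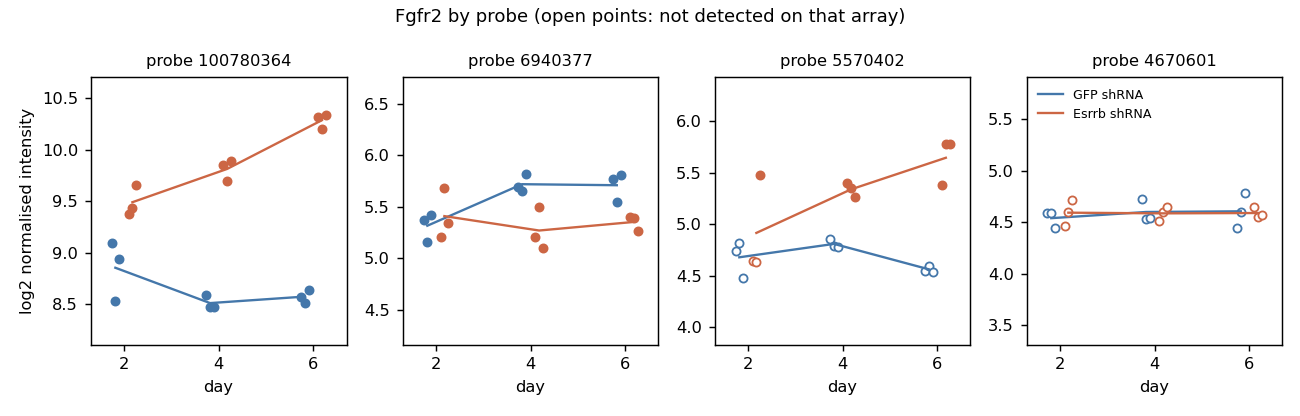
Log2 normalised intensity against day for the 4 Fgfr2 probes, with axes of equal height; filled points were detected, open points were not, lines join group means, blue is GFP shRNA and orange is Esrrb shRNA. Probe 100780364 and probe 5570402 are higher in Esrrb shRNA cells at day 6, probe 6940377 is lower, and probe 4670601 is at background.

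Fgfr1, an FGF receptor that ES cells are known to use, was at background on this array. One of its probes, 2190095, was detected on 1 of 18 arrays, replicate 3 of Esrrb shRNA at day 4, with a raw intensity of 85.4. The other, 4570161, was detected on none. These probes bound the Fgfr1 signal from above and give no comparison between the groups.

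Etv4 encodes an ETS factor that responds to FGF. It read 10.93, 10.83 and 10.57 in control cells and 10.36, 10.27 and 10.14 in Esrrb shRNA cells at day 2. At day 4 it read 10.99, 10.97 and 10.83 against 9.51, 9.53 and 9.38. At day 6 it read 10.47, 10.34 and 10.26 against 9.47, 9.16 and 9.25. No Esrrb shRNA array reached the control arrays of its day. The differences were −0.52 (SE 0.11, adjusted p = 0.00355), −1.46 (SE 0.11, adjusted p = 6.25e-09) and −1.06 (SE 0.11, adjusted p = 2.36e-07), leaving 69.6%, 36.4% and 47.9% of control. The loss deepened between day 2 and day 4 by −0.93 (SE 0.16, adjusted p = 0.00159) and did not pass a test of change between day 4 and day 6 (0.40, 95% interval 0.07 to 0.72, adjusted p = 0.111). With the BeadChip as a replicate block that Etv4 change passed (0.40, adjusted p = 0.0365). A fit on the day 2 arrays alone put the day 2 Etv4 difference just outside the threshold, at an adjusted p of 0.0504.

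Etv5, the closely related factor, moved little and the other way. Its bright probe read 11.05, 10.79 and 10.81 in control cells at day 2 and 10.96, 10.86 and 10.77 in Esrrb shRNA cells. At day 4 it read 10.85, 10.80 and 10.88 against 11.02, 10.96 and 10.91. At day 6 it read 10.86, 10.83 and 10.86 against 11.20, 11.19 and 11.15. The groups overlapped at day 2, and at days 4 and 6 all Esrrb shRNA arrays were the higher ones. The difference was −0.02 at day 2, 0.12 at day 4 (SE 0.09, adjusted p = 0.386) and 0.33 at day 6 (SE 0.09, adjusted p = 0.00602), or 125% of control. Its change from day 2 to day 6 was 0.35 (95% interval 0.09 to 0.61, adjusted p = 0.0512), and it passed with the BeadChip as a replicate block (adjusted p = 0.036). A second Etv5 probe was detected on 1 of 18 arrays.

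Spry4, a Sprouty inhibitor of receptor tyrosine kinase signalling, was lower early and level with control late. At day 2 it read 10.18, 10.21 and 10.06 in control cells and 9.73, 9.69 and 9.62 in Esrrb shRNA cells. At day 4 it read 10.41, 10.37 and 10.23 against 9.39, 9.17 and 9.27. At day 6 it read 9.10, 9.11 and 9.00 against 9.05, 9.25 and 9.06. The groups were apart at days 2 and 4 and overlapped at day 6. Differences were −0.47 (SE 0.09, adjusted p = 0.00195) and −1.06 (SE 0.09, adjusted p = 4.41e-08), and at day 6 0.05 (95% interval −0.15 to 0.24, adjusted p = 0.727). The effect at day 6 differed from that at day 4 by 1.11 (SE 0.13, adjusted p = 1.5e-05).

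The control cells were the ones that moved most in Spry4. Between day 2 and day 6 it fell by 1.08 in control cells (SE 0.09, adjusted p = 1.27e-08), to 47.3% of its day 2 level, and by 0.56 in Esrrb shRNA cells (SE 0.09, adjusted p = 8.38e-05). Both groups met at a level below that of Esrrb shRNA cells at day 2. Spry2, the other Sprouty gene, was not detected on any of the 18 arrays.

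Dusp6, the ERK phosphatase, was higher at day 6 with the Esrrb shRNA. It read 9.80, 9.80 and 9.95 in control cells at day 2 and 9.75, 9.70 and 9.72 in Esrrb shRNA cells. At day 4 it read 9.69, 9.84 and 9.60 against 9.80, 9.81 and 9.64. At day 6 it read 9.32, 9.38 and 9.27 against 9.62, 10.04 and 10.02. The day 2 groups were narrowly apart, the day 4 groups overlapped, and at day 6 the Esrrb shRNA arrays were all higher, replicate 1 by less than the others. The differences were −0.13 (95% interval −0.35 to 0.10, adjusted p = 0.528), 0.04 (−0.19 to 0.26, adjusted p = 0.85) and 0.57 (SE 0.11, adjusted p = 2.75e-04), the last being 149% of control. The day 6 effect exceeded that at day 2 by 0.70 (SE 0.15, adjusted p = 0.00248) and that at day 4 by 0.53 (SE 0.15, adjusted p = 0.0255). The latter Dusp6 call did not hold, with values from 0.46 to 0.53, without any 1 of 6 arrays: replicate 2 of the day 4 control, 3 of Esrrb shRNA at day 4, 1 and 3 of the day 6 control, or 2 and 3 of Esrrb shRNA at day 6.

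Here too the control cells changed with time: Dusp6 fell by 0.53 from day 2 to day 6 in control cells (adjusted p = 4.29e-04), and its difference in Esrrb shRNA cells was 0.17 (95% interval −0.06 to 0.40, adjusted p = 0.243), or 0.31 and past the threshold without replicate 1 of Esrrb shRNA at day 6. A dim second Dusp6 probe, detected on all 18 arrays, gave shRNA differences of 0.02, −0.03 and 0.18 on the 3 days, none of which passed, and its control cells differed by −0.02 between day 2 and day 6 (adjusted p = 0.932).

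Spred1, which inhibits RAS signalling with neurofibromin, was higher at day 6 by its brighter probe and rested on few arrays. That probe read 9.19, 9.02 and 9.11 in control cells at day 6 against 9.74, 9.29 and 9.40, with all Esrrb shRNA arrays above the control arrays. The difference was 0.37 (SE 0.13, adjusted p = 0.0305), after −0.06 and 0.16 at days 2 and 4. Without replicate 1 of Esrrb shRNA at day 6 it was 0.24 (adjusted p = 0.182), and without replicate 2 or replicate 3 of the control the adjusted p was 0.105 and 0.0668. The second Spred1 probe gave 0.08 at day 6 (adjusted p = 0.776) and the mean of both 0.22 (adjusted p = 0.219).

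Egr1, an immediate early zinc finger factor whose RNA follows ERK activity within a short time, was lower at day 4. It read 9.57, 9.77 and 9.89 in control cells at day 4 against 9.24, 9.17 and 9.30, with no overlap. The difference was −0.51 (SE 0.13, adjusted p = 0.00676), or 70.3% of control. At day 2 the groups overlapped, with 9.28, 9.36 and 9.50 against 9.05, 9.50 and 9.29 (−0.10, adjusted p = 0.692). At day 6 they overlapped through replicate 1 of the Esrrb shRNA, with 8.82, 8.73 and 8.84 against 8.74, 9.22 and 9.13 (0.24, adjusted p = 0.158). Without that array the day 6 Egr1 difference was 0.38 (adjusted p = 0.024). The same array was the lowest of its group in Dusp6 and the highest in Spred1. The effect on Egr1 at day 6 differed from that at day 4 by 0.75 (SE 0.18, adjusted p = 0.00965).

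**Figure D3:**
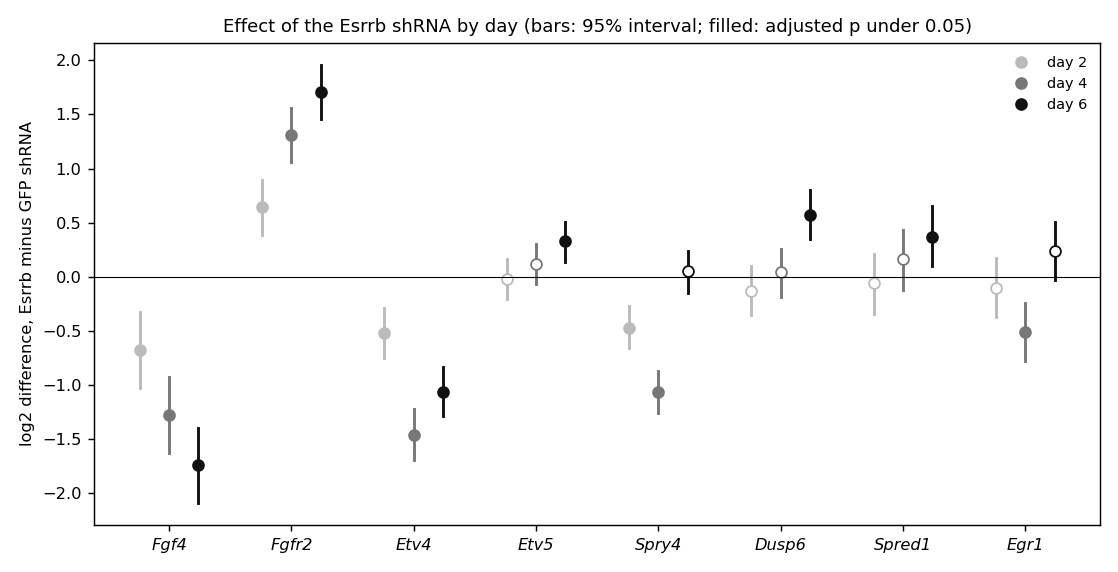
Log2 difference, Esrrb shRNA minus GFP shRNA, of the brightest probe of each tested gene at day 2 (light), day 4 (grey) and day 6 (black); bars are 95% intervals from limma, 3 arrays per group, and filled points passed an adjusted p of 0.05. Fgf4 runs from −0.68 to −1.74, Fgfr2 from 0.64 to 1.71, and Spry4 goes from −1.06 at day 4 to 0.05 at day 6.

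Time in culture was compared within each shRNA. In control cells 5 of the 8 genes were lower at day 6 than at day 2 and none was higher, where 48.4% of all tested genes changed and 22.7% of all tested genes were lower. Those 5 were Fgf4, Etv4, Spry4, Dusp6 and Egr1, with differences from −1.08 for Spry4 to −0.42 for Etv4, and Egr1 at −0.59 (adjusted p = 8.32e-04). In Esrrb shRNA cells 3 were lower (Fgf4, Etv4 and Spry4) and 2 higher (Fgfr2 by 0.80 and Etv5 by 0.32), where 36.3% of all tested genes changed, 19% of all tested being higher and 17.2% lower. Etv4 fell by 0.42 in control cells (adjusted p = 0.00385) and fell by 0.96 in Esrrb shRNA cells (adjusted p = 1.19e-06). The effect of the Esrrb shRNA differed between day 2 and day 6 in 5 of the 8 genes, against 24.2% of all genes, between day 4 and day 6 in 3, against 13.5%, and between day 2 and day 4 in 3, against 4.32%. The contrasts between days share arrays and are not independent of one another.

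Over the 18 arrays, values of the brightest probes of Fgf4 and Etv4 ran together (Pearson r = 0.939), as did Fgf4 and Spry4 less closely (r = 0.756). Fgfr2 and Etv5 ran against Fgf4 (r = −0.867 and −0.763), and Dusp6 showed no close relation to it (r = −0.252). These correlations describe 18 arrays in 6 groups, which share the differences between groups given above. The 5 genes with the highest correlation to Fgf4 among 11149 other tested genes with a current symbol were Myo1g (0.968), Ppm1j (0.964), Apod (0.962), Oas1g (0.959) and Pcolce (0.958). For Dusp6 they were Zfp280c (0.872), Pes1 (0.866), Znhit6 (0.864), Hyal2 (0.858) and Fasn (0.857).

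Other genes of the pathway were counted from 4 lists, also chosen with earlier results of these data known. Of 13 tested FGF ligands, binding proteins, receptors and co-receptors, 2 were higher at day 2, 2 higher and 2 lower at day 4, and 4 higher and 3 lower at day 6. Of all tested genes 11.4%, 22.7% and 40.2% changed on these days, with 19.4% higher and 20.8% lower at day 6. The ones higher at day 6 were Fgf5, an FGF of the primed epiblast, Fgf8, an FGF of the primitive streak, Fgfbp1, a secreted carrier of FGFs, and Flrt3, a membrane protein that binds FGF receptors. Fgf5 and Fgf8 were not detected in control cells at day 6, so they were at least 3.78-fold and 3.09-fold higher with the Esrrb shRNA. Both passed the detection filter only through Esrrb shRNA groups, Fgf8 only through day 6, so their being higher there followed from the filter and is given as a description. Of the 13 genes, 3 had passed only through Esrrb shRNA groups and 2 only through control groups. Fgfbp1 rose by 0.67, 1.44 and 2.04 on the 3 days and Flrt3 by 1.03 at day 6. Lower genes at day 4 were Klb, the co-receptor beta-Klotho (−0.68, adjusted p = 3.9e-04), and Fgf1, at least 1.45-fold lower, which had passed the filter only through control groups. At day 6 Fgf4 and the dim Fgfr2 probe 6940377 were lower, and the bright Fgfr2 probe was higher, in the same cultures. The list's median difference was 0.06 at day 6, near that of all genes.

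Of 24 tested genes of the core cascade from adaptors to kinases, 3 were higher and 2 lower at day 2, 4 higher and 3 lower at day 4, and 5 higher and 6 lower at day 6, with medians of 0.02, 0.05 and −0.13. That is 11 of 24 changed at day 6 beside 40.2% of all genes, and 11.4% of all genes changed at day 2 and 22.7% at day 4. Braf, a RAF kinase, was higher by 0.84, 0.69 and 1.26 on the 3 days, and Mras, a RAS-related GTPase that helps activate RAF, was lower, with −0.59, −1.14 and −0.98. The docking protein Frs2 was higher by 0.73 at day 4. At day 6 the GTPase Rras (−0.60) and the adaptor Grb2 (−0.53) were lower.

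Of 8 tested feedback inhibitors outside the group of 10, 1 was higher at day 2, 3 at day 4 and 4 at day 6, when 1 was lower, and the median difference was 0.26, 0.17 and 0.51. Of all tested genes 6.21%, 11.9% and 19.4% were higher on the 3 days, and 20.8% were lower at day 6. Dusp5, a nuclear ERK phosphatase, was higher by 0.68, 0.87 and 1.09. Dusp4, another nuclear MAP kinase phosphatase, was higher by 0.36 at day 4 and 1.40 at day 6 (SE 0.09, adjusted p = 2.07e-10). Il17rd, the membrane inhibitor also called Sef, was higher by 0.63 and 1.16 on those days, and Errfi1, an inhibitor of EGF receptors, by 0.76 at day 6. The lower one, singled out after its value was seen, was Dusp1 (−0.51, adjusted p = 0.00191), a phosphatase that also acts on stress kinases. With Dusp6, phosphatase RNAs thus went in both directions at day 6.

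Of 19 tested genes of a further list, taken as ERK-induced transcripts, 2 were higher and 2 lower at day 2, 5 higher and 3 lower at day 4, and 11 higher and 3 lower at day 6, with medians of 0.08, 0.03 and 0.55. The list also holds Elk1, Elk3, Elk4 and Phlda3, and whether ERK induces each gene in these cells was not tested. Of all genes 6.21% were higher and 5.19% lower at day 2, 11.9% and 10.7% at day 4, and 19.4% and 20.8% at day 6. Klf6, a Kruppel-like factor, was higher by 0.49, 1.03 and 1.26, and Jun, a subunit of AP-1 not detected in control cells at day 6, was at least 2.63-fold higher then. Jun passed the detection filter only through Esrrb shRNA groups, the 1 of the 19 genes to do so, and could not have been called lower. Epha4, an ephrin receptor, was lower on all 3 days, with −1.55, −1.48 and −1.09, and Ier3, an immediate early gene, was lower at day 6, with −1.20. Phlda1, a pleckstrin-homology protein, was at −0.62 at day 2 and 0.97 at day 6 (adjusted p = 0.00105 and 1.12e-06).

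**Figure D4:**
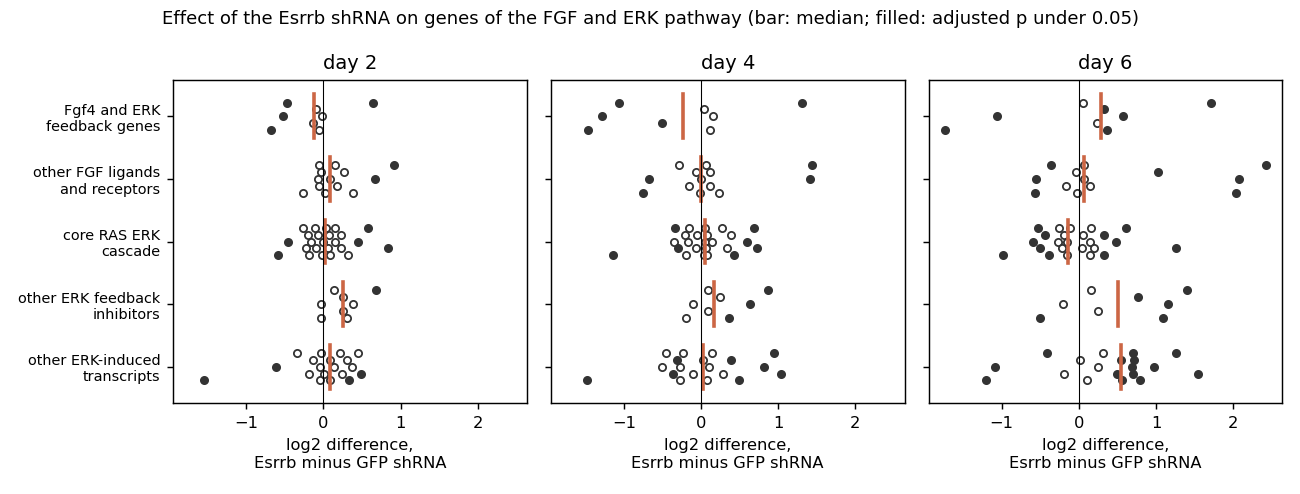
Log2 difference, Esrrb shRNA minus GFP shRNA, of each tested gene of the group of 10 and of 4 further pathway lists at days 2, 4 and 6; each point is the brightest probe of a gene, filled where its adjusted p was under 0.05, and the orange bar is the list's median. At day 6 the medians of the feedback inhibitors (0.51) and of the list taken as ERK-induced transcripts (0.55) lie to the right of 0, while Fgf4 (−1.74) is the lowest point of all lists.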

How the data were processed

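RNA of 18 cultures (6 groups of 3) was read on Illumina bead arrays with BeadStudio 3.2.6, per the submitters' processing notes. The deposited raw table gives, per the file headers, a mean signal intensity per probe, not normalized, a number of beads, and a detection score; 1 minus that deposited score was used as the detection p. A further 88 columns of that table, and a second deposited table whose identifiers had no counterpart in the raw table, were not used here. Labels call the replicates biological, and per the column headers replicate numbers mark the BeadChip; deviations from the group mean correlated by a median of 0.13 between arrays of the same number and −0.07 otherwise.

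In R 4.3.3 with limma 3.58.1, intensities were background-corrected, quantile-normalised and put on a log2 scale (neqc, offset 16), 338 probes with no mouse target left out, and probes kept if detected (p under 0.05) on all 3 arrays of a group. One model with 6 group means was fitted to 19460 probes by lmFit and eBayes, with Benjamini-Hochberg adjustment. A gene is represented by its brightest probe. The procedure was tested on simulated data.

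All members were named in full; of each pathway list the genes with the lowest adjusted p, up to 4 per list and day; and the 5 genes most correlated with Fgf4 and with Dusp6. One gene that this rule names is not reported here. The members and lists were chosen with earlier results of these data known. Symbols are those of the array, and probe sequences were not used here. Alternatives covered background, scaling, filter, probe choice, array weights, the replicate block and leaving out arrays.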

Additional observations from a re-analysis of the deposited data

Results flagged for a closer look

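The effect of the Esrrb shRNA on 6 of the 8 tested genes differed between at least 1 pair of days by a test of the difference itself (limma interaction over 18 arrays, adjusted over all probes). Of all tested genes 4.32% passed from day 2 to day 4, 13.5% from day 4 to day 6 and 24.2% from day 2 to day 6. The share of all genes that passed at least 1 of these tests is not given here. Fgf4 was lower by a further −1.07 at day 6 than at day 2 (adjusted p = 0.00274), or by −0.46 without background correction (adjusted p = 0.0301) and −0.62 with an offset of 50. Etv4 was lower by a further −0.93 at day 4 than at day 2 (adjusted p = 0.00159) and by −0.54 at day 6 than at day 2 (adjusted p = 0.0174), the latter being −0.43 without replicate 3 of the day 2 control and −0.48 without replicate 1 of the day 6 control, where it no longer passed. The bright Fgfr2 probe gained 0.67 from day 2 to day 4 (adjusted p = 0.0288) and 1.08 from day 2 to day 6 (adjusted p = 1.27e-04). Its gain to day 4 kept the call in 10 of 18 fits with 1 array left out, and was 0.14 (adjusted p = 0.634) with all kept probes averaged. Spry4 changed by −0.59 from day 2 to day 4 (adjusted p = 0.0128), by 1.11 from day 4 to day 6 (adjusted p = 1.5e-05) and by 0.52 from day 2 to day 6 (adjusted p = 0.00736). Dusp6 changed by 0.53 from day 4 to day 6 (adjusted p = 0.0255) and by 0.70 from day 2 to day 6 (adjusted p = 0.00248). The former kept its call in 12 of 18 fits with 1 array left out, and was 0.37 (adjusted p = 0.0966) with all kept probes averaged. Egr1 changed by 0.75 from day 4 to day 6 (adjusted p = 0.00965). Groups of 3 arrays are too small for a test of single outlying arrays.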

How the results depend on the processing

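The counts of changed genes among the 8 tested were recomputed under 10 other settings and with each of the 18 arrays left out. Leaving out 1 array gave 3 to 4 genes at day 2, 5 to 5 at day 4 and 5 to 6 at day 6. It gave 2 to 3, 2 to 3 and 4 to 6 genes whose effect differed from day 2 to 4, day 4 to 6 and day 2 to 6. Within control and Esrrb shRNA cells from day 2 to day 6 it gave 5 to 6 in both. The replicate block (BeadChip as a term, since replicate numbers pair arrays by BeadChip) gave 4, 5 and 6 genes at days 2, 4 and 6 and changed no call of the Esrrb shRNA effect on a day. For differences between days it gave 4, 4 and 7, and 6 and 5 within control and Esrrb shRNA cells. Over all 19460 tested probes the block raised the calls too. For differences between days, in the same order, they went from 776, 2440 and 4523 to 1115, 2982 and 5184. Within control and Esrrb shRNA cells they went from 9274 and 6863 to 9927 and 7494. Among the 8 genes the calls the block added were Fgf4 from day 2 to 4 (−0.61), Etv4 from day 4 to 6 (0.40), Etv5 and Spred1 from day 2 to 6 (0.35 and 0.43), and Fgfr2 in control cells (−0.28). Of 1752 alternative values of single genes, 1688 kept direction and side of the threshold, 28 no longer passed, 27 newly passed and 9 changed sign. The 9 were small values that passed in no fit, and their cause was not tested. Etv5 at day 2 turned to 0.01 after median centring, 0.02 with array weights and a range of −0.07 to 0.06 with 1 array left out. Leaving out 1 array also gave −0.08 to 0.05 for Etv5 within control cells, −0.15 to 0.06 for Spred1 at day 2, −0.21 to 0.01 for Egr1 at day 2, −0.02 to 0.11 for Dusp6 at day 4 and −0.02 to 0.08 for Spry4 at day 6. Of those that newly passed, the Etv5 difference of day 6 from day 2 passed without background correction (0.34), with 1 probe per gene (0.35) and with a stricter filter (0.35). The Etv5 rise within Esrrb shRNA cells did not pass after median centring (0.16). Egr1 at day 6 passed with array weights (0.30). Spred1 at day 6 did not pass without the detection filter (adjusted p = 0.0672). Signal over background limits Fgf4 at day 6, the dim Fgfr2 probes, Fgfr1 and Spry2.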
